A study of Mus musculus with 18 samples.

Results

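Cardiac nerves are wrapped by Schwann cells, glia that either insulate an axon with myelin or hold several unmyelinated axons in one bundle. Their identity depends on the transcription factor Sox10. They receive survival signals from axons, above all neuregulin 1, through the receptor pair Erbb3 and Erbb2, and they respond to nerve injury by leaving the myelinating program and making trophic factors. In the heart most nerve fibres are thin autonomic axons, so glia of the unmyelinated kind prevail.

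Levels of 8 genes used as markers of these glia and of cardiac nerves were followed in mouse hearts after irradiation. They are Sox10, Foxd3, Mbp, Pmp22, S100b, Cdh19, Ngfr and Gfra3. They were chosen by symbol, with earlier results of these data known, and are 8 of 30072 genes in the count table. All 8 were among the 15054 genes that passed the filter on low values.

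RNA was sequenced from 18 adult CD-1 mice, an outbred strain, with 6 mice in each group. The 2wk and 6wk groups were taken 2 and 6 weeks after 1 dose of 25 Gy to the heart, given under isoflurane. The ctrl group had anesthesia without this dose, and the labels give it no time. In the paper the controls are sham mice that also had CT imaging. Mice were at least 8 weeks old, of both sexes and matched by litter. Sex is not labelled per mouse. The labels name the septum as the tissue and the paper ventricular tissue. Labels and paper also name different radiation, gamma rays and X-rays.

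Estimated counts summed to between 11522979 and 15501002 per mouse, with a median of 13682439. Values below are CPM, counts scaled to library size after TMM normalization (a trimmed mean of log ratios between libraries), unless TPM is named. TPM is also divided by transcript length, so it alone is used to compare genes with each other. On the CPM scale 3 counts, the most that a count of 0 allows, were 0.179 to 0.278 CPM, and this floor covers counting error only. Cardiomyocyte markers were abundant in all mice, with summed levels of 21523 to 36732 CPM in controls, 24816 to 32107 at 2 weeks and 19096 to 26308 at 6 weeks. Atrial markers, which ventricular muscle makes little of, summed to between 0.661 and 583 CPM. The highest sum was in 2wk replicate 5, in which even the atrial factor Bmp10 reached 9 counts. Melanocyte markers are of interest because melanocytes share Sox10 with glia, and 4 of 6 such genes were expressed highly enough to be tested. In whole tissue, fewer cells of a type and less RNA per cell cannot be told apart.

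Other genes listed for these cells also had counts, and which cells of the tissue made them was not tested. Scn7a, a sodium channel typical of unmyelinated Schwann cells, had 384 to 1065 counts, and Erbb3 had 179 to 330. Others were sparse. Of 20 genes listed for unmyelinated Schwann cells and satellite glia 16 passed the filter, and of 16 listed myelin genes 11 did.

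By median TPM over the 18 mice the order was Pmp22 (41.2), Cdh19 (1.94), Mbp (1.75), S100b (0.842), Gfra3 (0.803), Ngfr (0.25), Foxd3 (0.156) and Sox10 (0.141). Only the step from Pmp22 to Cdh19 was free of overlap, since the lowest Pmp22 value of any mouse was 23.5 TPM and the highest Cdh19 value 2.998. Cdh19 ranged from 0.797 to 2.998 TPM and Mbp from 0.875 to 3.80 TPM, so these neighbours overlapped. S100b ranged from 0.352 to 1.51 TPM and Gfra3 from 0.314 to 1.94 TPM. Ngfr (0.0416 to 0.668), Foxd3 (0.037 to 0.285) and Sox10 (0 to 0.392) also overlapped with each other. Pmp22 encodes a membrane protein that many cell types make besides glia, and its level was far from that of the other 7.

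No member passed the threshold, a Benjamini-Hochberg adjusted P under 0.05 in edgeR's quasi-likelihood test, in any of the 3 comparisons. At 2 weeks against controls 0 of 8 members were called, where 5.02% of all tested genes were. At 6 weeks against controls 0 of 8 were called, where 25% of all tested genes were. At 6 weeks against 2 weeks 0 of 8 were called, where 5.33% of all tested genes were. With DESeq2 the count was also 0 in each comparison. At an unadjusted P under 0.05, edgeR gave 2 members at 2 weeks (Ngfr and Mbp), 0 at 6 weeks against controls and 1 between the irradiated groups (Gfra3). The median log2 fold change of the 8 genes was 0.31 at 2 weeks, −0.30 at 6 weeks and −0.56 between 6 and 2 weeks, against −0.0015, −0.019 and −0.00075 for all tested genes. The 3 comparisons share groups of mice and are not independent of each other.

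**Figure D1:**
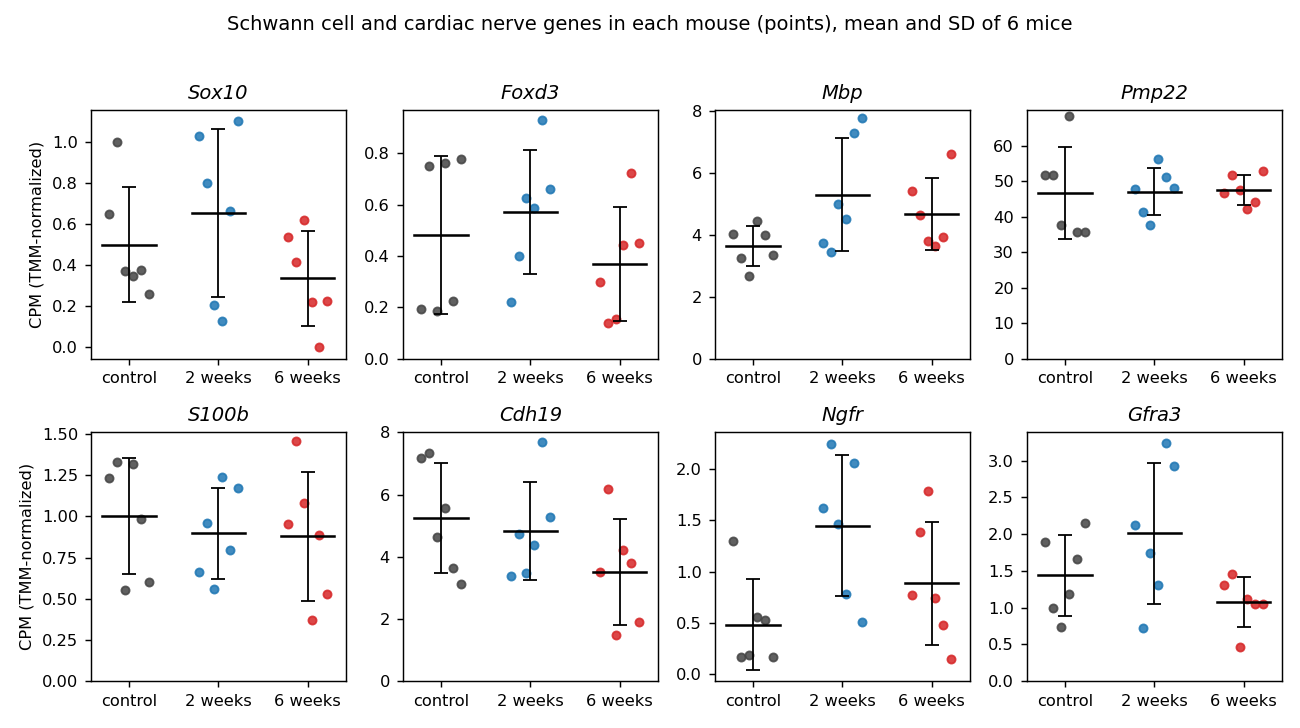
CPM of the 8 genes (y axis, linear, one scale per gene) in controls and at 2 and 6 weeks after 25 Gy (x axis). Points are mice, bars the mean and whiskers the SD of 6 mice. The groups overlapped for every gene, and Ngfr had a mean of 0.485 CPM in controls and 1.45 CPM at 2 weeks.

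Sox10 (ENSMUSG00000033006, chromosome 15, 79154908 to 79165240, minus strand, GRCm38) specifies the glial lineage. Control mice had between 0.259 and 0.9999 CPM (median 0.374), mice at 2 weeks between 0.131 and 1.099 CPM (median 0.733) and mice at 6 weeks between 0 and 0.62 CPM (median 0.321). These values rest on 0 to 15 counts per mouse, and the groups overlapped throughout. The mouse at 0 was 6wk replicate 5, for which the floor allows up to 3 counts. Its log2 fold change was 0.34 ± 0.48 (SE) at 2 weeks, −0.52 ± 0.54 at 6 weeks and −0.87 ± 0.51 between 6 and 2 weeks (adjusted P = 0.74, 0.532 and 0.347, edgeR). The 95% interval of the last, −1.93 to 0.20, runs from 0.262 to 1.15 times the 2-week level.

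Foxd3 (ENSMUSG00000067261, chromosome 4, 99656299 to 99658622, plus strand) is a forkhead factor of the neural crest, the embryonic source of these glia. Its level was between 0.185 and 0.776 CPM in controls (median 0.488), 0.22 and 0.928 CPM at 2 weeks (median 0.607) and 0.139 and 0.724 CPM at 6 weeks (median 0.372). At 2 to 14 counts per mouse, it was as sparse as Sox10. The controls alone spanned nearly the range of all 18 mice, which only 2wk replicate 5 and the lowest 2 mice at 6 weeks exceeded. Fitted log2 fold changes were 0.27 ± 0.42 (SE) at 2 weeks and −0.40 ± 0.46 at 6 weeks (adjusted P = 0.771 and 0.58, edgeR). Between 6 and 2 weeks the value was −0.67, with an interval from −1.58 to 0.24.

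Mbp (ENSMUSG00000041607, chromosome 18, 82475146 to 82585637, plus strand) encodes myelin basic protein, which compacts the myelin sheath. The same gene also gives transcripts in cells without myelin, and the gene counts sum over transcripts, of which GENCODE lists 14 coding ones. Controls lay between 2.68 and 4.44 CPM (median 3.69), mice at 2 weeks between 3.45 and 7.77 CPM (median 4.76) and mice at 6 weeks between 3.63 and 6.62 CPM (median 4.30). At 2 weeks 4 of 6 mice were above every control, at 6 weeks 3 of 6. Mbp had a log2 fold change of 0.54 ± 0.21 (SE) at 2 weeks (adjusted P = 0.156, edgeR) and 0.36 ± 0.22 at 6 weeks (adjusted P = 0.253). Scaled by library size alone, without TMM, the 6-week value became 0.62 and passed the threshold (adjusted P = 0.0394), under a scaling that also raised the median of all genes to 0.24.

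Pmp22 (ENSMUSG00000018217, chromosome 11, 63128982 to 63159547, plus strand) encodes peripheral myelin protein 22. It had between 35.7 and 68.3 CPM in controls (median 44.6), 37.8 and 56.1 CPM at 2 weeks (median 47.9) and 42.2 and 53.0 CPM at 6 weeks (median 47.1). With 406 to 984 counts per mouse, it was the best measured member. Its log2 fold change was 0.01 ± 0.14 (SE) at 2 weeks and 0.02 ± 0.14 at 6 weeks (adjusted P = 0.99 and 0.941, edgeR). The intervals, −0.29 to 0.30 and −0.28 to 0.31, correspond to 0.818 to 1.23 and 0.826 to 1.24 times the control level at this scaling. The highest value, 68.3 CPM, was in ctrl replicate 4, the mouse with the highest fibroblast marker sum (2019 CPM, against 735 to 1050 CPM in the other controls), and the part of fibroblasts in it was not tested. Without that mouse the log2 fold changes were 0.15 and 0.16.

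S100b (ENSMUSG00000033208, chromosome 10, 76253853 to 76261159, plus strand) encodes a calcium-binding protein of glia. Its values were 0.555 to 1.33 CPM in controls (median 1.11), 0.556 to 1.24 CPM at 2 weeks (median 0.879) and 0.371 to 1.46 CPM at 6 weeks (median 0.92). The 3 groups spanned nearly the same range. Log2 fold changes were −0.19 ± 0.30 (SE) at 2 weeks and −0.21 ± 0.31 at 6 weeks (adjusted P = 0.778 and 0.67, edgeR), and the sign turned when library size alone (at 6 weeks) or TPM (at both times) was used. S100b overlaps Dip2a on the opposite strand, a gene with up to 497 counts per mouse where S100b had at most 21. Whether counting used strand is not given in the sources used here, so reads of the shared stretch may not be told apart.

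Cdh19 (ENSMUSG00000047216, chromosome 1, 110888326 to 110977584, minus strand) encodes cadherin 19, an adhesion protein of Schwann cell precursors and their descendants. Controls had 3.11 to 7.33 CPM (median 5.09), mice at 2 weeks 3.38 to 7.69 CPM (median 4.56) and mice at 6 weeks 1.47 to 6.18 CPM (median 3.65). The 2 lowest values of all 18 mice, 1.47 and 1.88 CPM, were both at 6 weeks. At 6 weeks the log2 fold change was −0.58 ± 0.30 (SE; 95% interval −1.20 to 0.05; adjusted P = 0.177, edgeR). This was the smallest adjusted P of any member against controls at that time, and leaving out single mice kept it between 0.0545 and 0.326. Across the other settings the log2 fold change ran from −0.75 to −0.14 and the adjusted P from 0.112 to 0.605. At 2 weeks the value was −0.12 ± 0.29.

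Ngfr (ENSMUSG00000000120, chromosome 11, 95568818 to 95587735, minus strand) encodes the low-affinity neurotrophin receptor p75, which Schwann cells make in development and again after nerve injury. Control mice had 0.167 to 1.30 CPM (median 0.357), mice at 2 weeks 0.513 to 2.25 CPM (median 1.54) and mice at 6 weeks 0.151 to 1.78 CPM (median 0.758). All 6 mice at 2 weeks were above the control median, and 4 were above every control. At 2 weeks its log2 fold change was 1.44 ± 0.50 (SE; 95% interval 0.38 to 2.49; adjusted P = 0.107, edgeR), the largest of any member in any comparison. At 6 weeks it was 0.75 ± 0.55 (adjusted P = 0.354).

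Whether Ngfr passed the threshold at 2 weeks differed between settings. Ctrl replicate 1 had 20 counts of Ngfr, or 1.30 CPM, where the other 5 controls had 0.167 to 0.557 CPM. Without it the log2 fold change was 2.06 and the adjusted P 0.0321, and leaving out other mice gave values from 1.27 upward and an adjusted P of at most 0.20. On log2(TPM + 1) and log2(TPM + 0.1) Ngfr passed the threshold with all 18 mice (adjusted P = 0.0439 and 0.0343, limma), and with DESeq2 it did not (adjusted P = 0.0599). Both TPM forms also raised the median of all genes at 2 weeks, to 0.18 and 0.24. Of the 2813 and 3026 genes they called, 2774 and 2990 were higher.

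Gfra3 (ENSMUSG00000024366, chromosome 18, 34689898 to 34720387, minus strand) encodes the receptor for artemin, a guidance and survival factor of sympathetic and sensory axons. Its values were 0.74 to 2.16 CPM in controls (median 1.42), 0.722 to 3.25 CPM at 2 weeks (median 1.93) and 0.465 to 1.46 CPM at 6 weeks (median 1.08). At 6 weeks no mouse was above the 2-week median. Between 6 and 2 weeks the log2 fold change was −0.89 ± 0.33 (SE; 95% interval −1.58 to −0.20; adjusted P = 0.119, edgeR). Against controls it was 0.48 ± 0.32 at 2 weeks and −0.42 ± 0.35 at 6 weeks (adjusted P = 0.42 and 0.431).

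**Figure D2:**
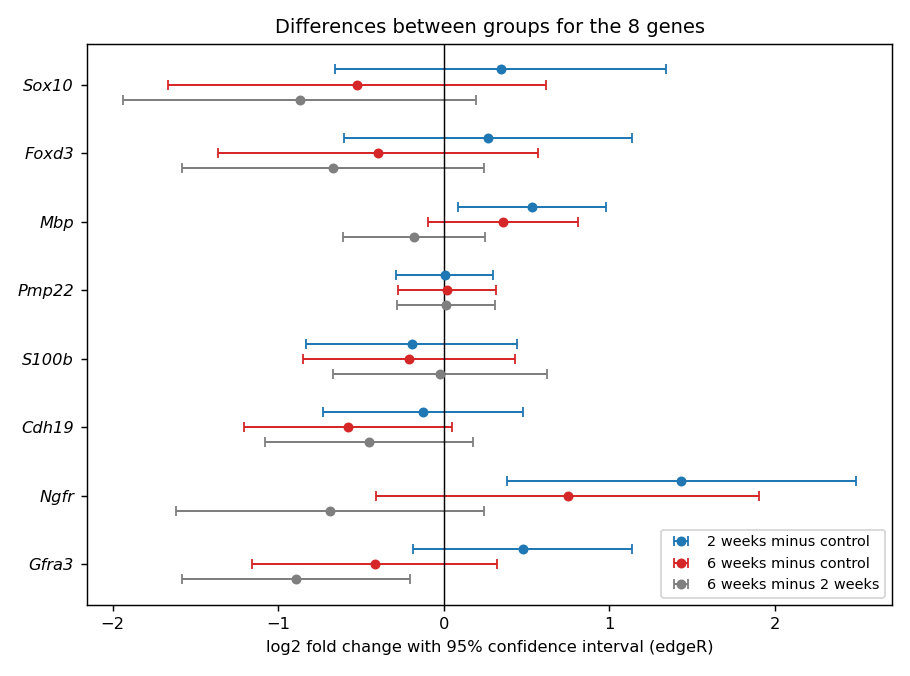
Fitted log2 fold changes (x axis) of the 8 genes (y axis) for 2 weeks minus control, 6 weeks minus control and 6 minus 2 weeks, with 95% confidence intervals. The intervals of Ngfr and Mbp at 2 weeks and of Gfra3 between 6 and 2 weeks leave out 0, and the adjusted P of each is above 0.05.

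The mouse with the highest atrial marker sum, 2wk replicate 5 (583 CPM, against 0.661 to 80.8 CPM in the other mice at 2 weeks), also had the highest level of all 18 mice for Cdh19 (7.69 CPM), Gfra3 (3.25 CPM) and Foxd3 (0.928 CPM). The axon and pan-neuronal genes summed to 18.3 CPM in this mouse and to at most 9.22 CPM in the other 2-week mice. Without it the log2 fold change at 2 weeks fell to 0.28 for Gfra3, 0.07 for Foxd3 and 0.42 for Mbp, and was −0.31 for Cdh19. The value of Gfra3 between 6 and 2 weeks was then −0.70. The part of atrial tissue in these values was not tested.

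Within groups the members did not vary as 1 block. Over the 18 mice, with each group's mean removed from log2 CPM, Pearson's r of the 28 pairs of members ran from −0.50 (Ngfr and Foxd3) to 0.64 (Mbp and Gfra3), with S100b and Pmp22 at 0.58. These are descriptions from shared libraries and mostly low counts, with no P. The 5 genes most like Sox10 by the same measure over the 15054 genes were Phf19 (0.88), Cacnb3 (0.82), Snrpc (0.79), E030030I06Rik (0.79) and Gtpbp3 (0.79). None was a member, and the member nearest to Sox10 was Ngfr with 0.29. With so few Sox10 counts these likenesses carry little weight. The same measure was then taken for Cdh19, which had 19 to 116 counts per mouse, after values were seen. The nearest 5 genes were Ccdc149 (0.78), Abca8a (0.78), Hspe1 (0.75), Peli2 (0.74) and Pitx3 (0.73), and Pdgfra, a fibroblast marker, ranked 8 (0.72). The part of fibroblasts in the Cdh19 level was not tested.

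The wider pathways were described with 97 other genes in 8 lists, of which 69 were tested. At 2 weeks 2 of 69 were called (2.9%, all genes 5.02%), both higher, and 11 had an unadjusted P under 0.05. At 6 weeks 15 of 69 were called (21.7%, all genes 25%), 6 higher and 9 lower. Between 6 and 2 weeks 6 of 69 were called (8.7%, all genes 5.33%), 1 higher and 5 lower. The median log2 fold change of the 69 was 0.02, 0.02 and −0.05. The split at 6 weeks depended on scaling. By library size alone it was 14 higher and 3 lower of 17, and on log2(TPM + 1) 18 higher and 2 lower of 20, with the median of all genes at 0.24 and 0.29. The lower calls below are therefore given relative to TMM, and each of them kept its sign under both.

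**Figure D3:**
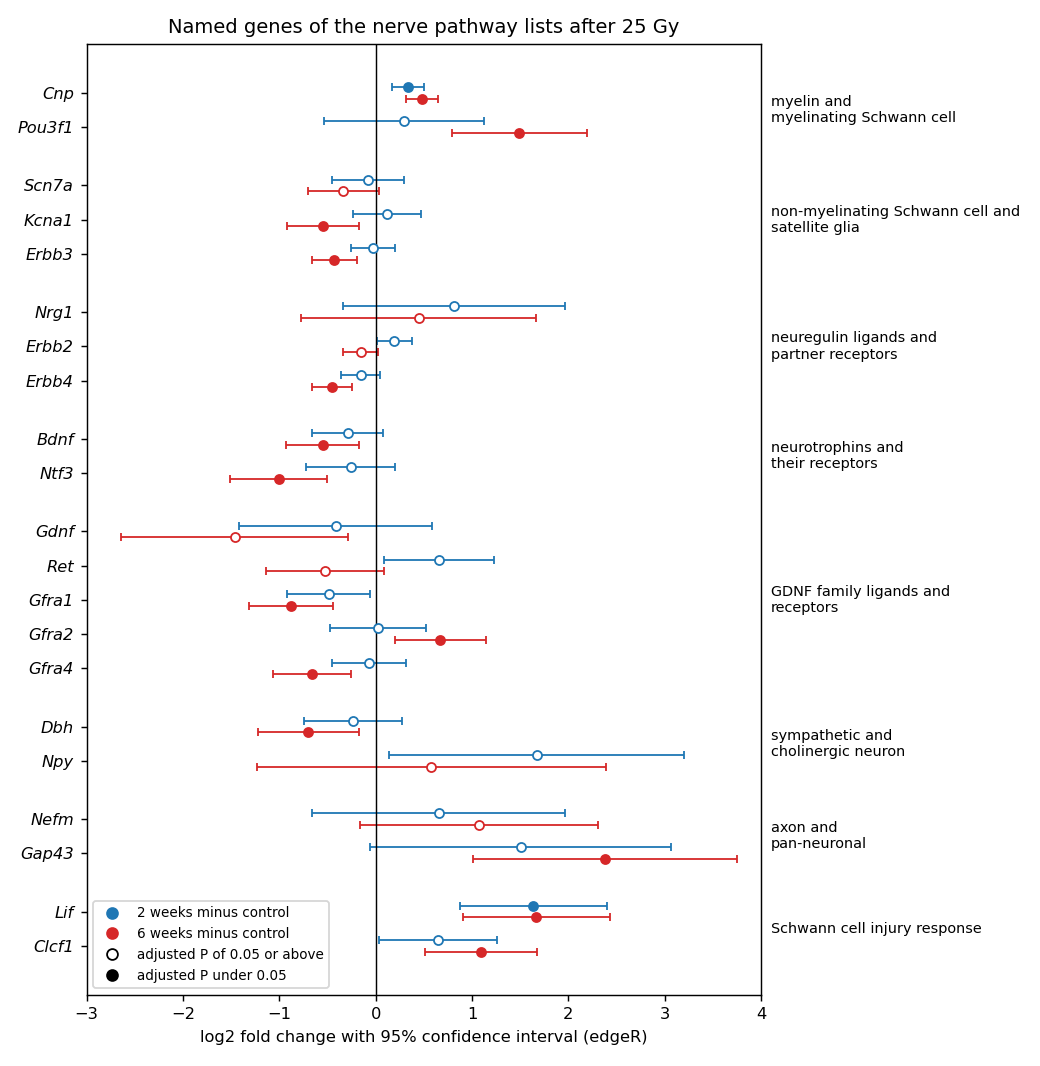
Fitted log2 fold changes with 95% confidence intervals (x axis) for the named genes of 8 pathway lists (y axis, list names at right), 2 and 6 weeks after 25 Gy against controls. Filled points have an adjusted P under 0.05, which at 2 weeks held for Cnp and Lif.

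Among myelin genes 2 of 11 tested were called at 6 weeks (all genes 25%), both higher, and the list median was 0.54. Cnp, an enzyme of the myelin membrane also found in other cells, had 9.30 to 11.7 CPM in controls, 11.6 to 13.9 CPM at 2 weeks and 13.2 to 16.9 CPM at 6 weeks. The 6-week mice were all above the controls. Of all tested genes 9.23% had no overlap between these groups, in either direction. Cnp rose by a log2 fold change of 0.33 ± 0.08 (SE) at 2 weeks and 0.48 ± 0.08 at 6 weeks (adjusted P = 0.0206 and 0.000229, edgeR). Pou3f1, a transcription factor of the promyelinating stage, had 0.13 to 0.832 CPM in controls and 0.815 to 1.85 CPM at 6 weeks. It rose at 6 weeks by 1.49 ± 0.34 (adjusted P = 0.00308) from a median of 6 counts to 17.5.

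Of the genes of unmyelinated Schwann cells and satellite glia, 3 of 16 tested were called at 6 weeks (all genes 25%), all lower. Erbb3, the glial receptor that binds neuregulin, had 18.4 to 26.7 CPM in controls, 19.5 to 26.5 CPM at 2 weeks and 14.4 to 19.99 CPM at 6 weeks. At 6 weeks it fell by 0.43 on the log2 scale (SE 0.11, adjusted P = 0.00737), and all 6 mice were below the control median. Kcna1, a potassium channel of axons and glia, had 2.78 to 4.57 CPM in controls and 1.47 to 3.54 CPM at 6 weeks, a change of −0.55 ± 0.18 (adjusted P = 0.0324) that missed the threshold in 6 of 18 fits with 1 mouse left out (adjusted P up to 0.0754). Scn7a had 38.1 to 73.9 CPM in controls and 28.6 to 50.9 CPM at 6 weeks and was not called (−0.33 ± 0.18, adjusted P = 0.187). By library size alone Erbb3 was at −0.16 and Kcna1 at −0.29, neither past the threshold.

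**Figure D4:**
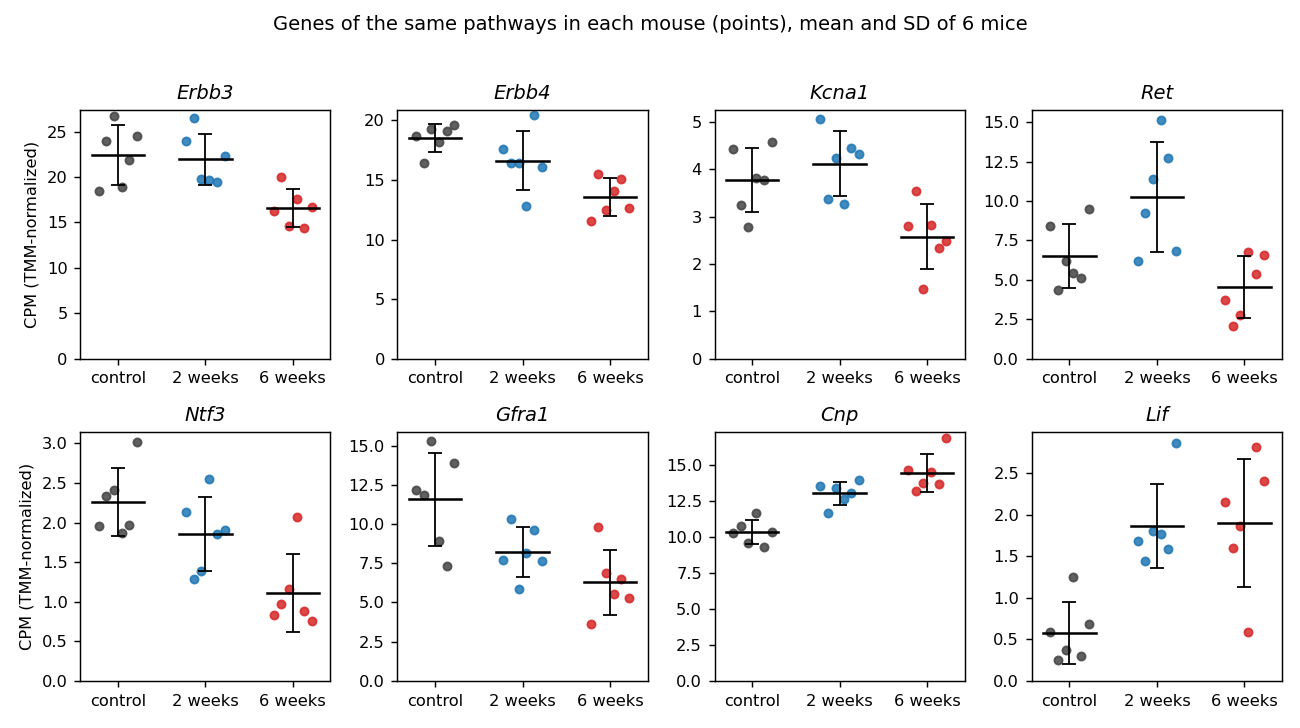
CPM (y axis, linear) of 8 genes of the pathway lists in controls and at 2 and 6 weeks (x axis). Points are mice, bars the mean and whiskers the SD of 6 mice. Erbb3, Erbb4 and Kcna1 were each below the control median in all 6 mice at 6 weeks, and Ret was above it in all 6 mice at 2 weeks.

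In the neuregulin list 1 of 5 tested genes was called at 6 weeks (all genes 25%). Nrg1 itself, whose cell source in this tissue was not tested, had 0 to 12 counts per mouse. Its log2 fold change of 0.45 ± 0.58 at 6 weeks was not called (adjusted P = 0.63, edgeR). Erbb4, the neuregulin receptor of cardiomyocytes, had 16.4 to 19.6 CPM in controls and 11.6 to 15.5 CPM at 6 weeks. These ranges did not overlap, as for 9.23% of all tested genes. Erbb4 fell by 0.45 on the log2 scale (SE 0.10, adjusted P = 0.00252, edgeR). By library size alone the value was −0.19 and not called. Erbb2, the signalling partner of both receptors, was called only between 6 and 2 weeks (−0.35 ± 0.09, adjusted P = 0.0277), a call lost in 6 of 18 fits with 1 mouse left out (adjusted P up to 0.0615).

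Among neurotrophins and their receptors 2 of 11 were called at 6 weeks (all genes 25%), both lower. Ntf3 (neurotrophin 3) had 1.87 to 3.02 CPM in controls and 0.752 to 2.08 CPM at 6 weeks, a change of −1.01 ± 0.24 (SE; adjusted P = 0.00454), and was also called by library size alone (−0.75, adjusted P = 0.0167). Bdnf had 6.58 to 9.14 CPM in controls and 3.93 to 6.68 CPM at 6 weeks, a change of −0.55 ± 0.18 (adjusted P = 0.0306). Bdnf was not called by library size alone (−0.29, adjusted P = 0.223) or with the replicate block (adjusted P = 0.0543), and lost its call in 5 of 18 fits with 1 mouse left out (adjusted P up to 0.0713).

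The GDNF family, to which Gfra3 belongs, had 3 of 6 tested genes called at 6 weeks (all genes 25%). Gfra1, the receptor for GDNF, had 7.33 to 15.3 CPM in controls and 3.64 to 9.79 CPM at 6 weeks, a change of −0.88 ± 0.21 (SE; adjusted P = 0.00452). Gfra4 changed by −0.66 ± 0.19 (adjusted P = 0.0159). Gfra2, the receptor for neurturin, rose by 0.67 ± 0.23 (adjusted P = 0.0358), a call lost in 7 of 18 fits that each left out 1 mouse (adjusted P up to 0.101). Ret, the kinase that all of them share, had 4.33 to 9.49 CPM in controls, 6.17 to 15.1 CPM at 2 weeks and 2.08 to 6.75 CPM at 6 weeks. Ret was called only between 6 and 2 weeks (−1.19 ± 0.28, adjusted P = 0.0234, up to 0.0559 with 1 mouse left out), the comparison in which Gfra3 had its smallest P. Gdnf, with 0 to 8 counts per mouse, was at −1.46 ± 0.57 at 6 weeks and not called (adjusted P = 0.0641).

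Several genes listed for neurons had few counts. Th, the rate-limiting enzyme of noradrenaline synthesis, had 0 counts in all controls and at most 3 in an irradiated mouse, and was not tested. Dbh, which makes noradrenaline from dopamine, had 4.69 to 8.24 CPM in controls and 1.85 to 4.89 CPM at 6 weeks, a change of −0.70 ± 0.25 (SE; adjusted P = 0.0473). It was the only one of 6 tested sympathetic and cholinergic genes called (all genes 25% at 6 weeks), and by library size alone it was not (−0.43, adjusted P = 0.159). The Dbh call was also lost in 10 of 18 fits with 1 mouse left out (adjusted P up to 0.106). Which cells of the tissue made the Dbh RNA was not tested. Npy, a sympathetic cotransmitter, had 0 to 25 counts and Nefm, an axonal filament, 0 to 11, and neither was called. Gap43, a protein of growing axons and injured glia, had at most 3 counts in a control, 6 at 2 weeks and 14 at 6 weeks. It passed the filter on low values only through irradiated mice, and in 6 of 18 fits with 1 mouse left out it was not tested at all. Its call at 6 weeks (adjusted P = 0.00947, edgeR), 1 of the 15 above, is therefore given as a description, and its fitted log2 fold change of 2.38 depends on the prior count.

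Of 5 tested genes of the Schwann cell injury response, 2 were called at 6 weeks (all genes 25%), both higher. Lif, a cytokine that injured nerve and many other cells release, had 0.25 to 1.25 CPM in controls, 1.44 to 2.86 CPM at 2 weeks and 0.593 to 2.82 CPM at 6 weeks. At 2 weeks all mice were above all controls, where 3.24% of all tested genes had no overlap in either direction. Lif rose by 1.64 ± 0.37 (SE) at 2 weeks and 1.67 ± 0.36 at 6 weeks (adjusted P = 0.0157 and 0.00249, edgeR). Clcf1, a ligand of the same receptor family, rose at 6 weeks by 1.09 ± 0.28 (adjusted P = 0.00689).

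Some markers of other cells also changed. At 2 weeks 1 of 4 endothelial markers was higher (Pecam1, 0.48, adjusted P = 0.00366, edgeR) and 1 lower (Tek, −0.40, adjusted P = 0.0223), 1 of 5 macrophage markers was higher (C1qa, 0.58, adjusted P = 0.0272), and 1 of 5 fibroblast markers (Pdgfra, −0.55, adjusted P = 0.0193) and 1 of 4 tested melanocyte markers (Dct, −1.04, adjusted P = 0.0221) were lower. More of these markers were called at 6 weeks, as held for all tested genes (25%, against 5.02% at 2 weeks). Of 5 macrophage markers, 5 were higher, with sums of 227 to 320 CPM against 99.3 to 250 CPM in controls. Of 5 cardiomyocyte markers, 4 were lower. Of 4 endothelial markers, 2 were higher and 1 lower, and of 5 fibroblast markers 1 was lower. Of 6 pericyte and smooth muscle markers 1 was higher. Of 3 red blood cell markers 1 was lower, with sums of 40.3 to 108 CPM against 45.0 to 1070 CPM in controls. Of 4 tested melanocyte markers 1 was lower (Mitf, −0.37, adjusted P = 0.000392, edgeR), and Dct was not called (adjusted P = 0.0548). Mitf had 51.7 to 61.8 CPM at 6 weeks, most of the list sums of 57.8 to 64.9 CPM, and its cell source was not tested. Of the 3 tested atrial and 4 tested adipocyte markers 0 were called by edgeR, and 0 had an unadjusted P under 0.05. The median share of counts from the mitochondrial genome was 23.2% in controls, 20.2% after 2 weeks and 17.4% after 6. The part of these shifts in the levels of the nerve genes was not tested.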

How the data were processed

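RNA of 18 mice was sequenced individually and each mouse was used as 1 replicate. The submitters' processing notes name CASAVA 1.8, Salmon 1.0 and GRCm38. The authors' alignment used STAR, and tximport turned the Salmon transcript estimates into gene values. The authors deposited estimated counts, not normalized between mice, and TPM values per gene and mouse. TPM was used here for levels between genes and as an alternative.

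Counts were rounded and analysed with edgeR 4.0.16 in R 4.3.3. The filter kept genes that reached 0.23 CPM in 6 or more mice, and libraries were scaled by TMM. One quasi-likelihood fit held the 3 groups. Each pair was tested two-sided, with Benjamini-Hochberg adjustment over all tested genes of a comparison. A gene was called at an adjusted P under 0.05. SE is the absolute log2 fold change divided by the square root of F. The code was tested on simulated counts. Alternatives used DESeq2 1.42.0, limma 3.58.1, other scalings, filters and thresholds, TPM with pseudocounts 1 and 0.1, the replicate number, Y-linked expression, and each mouse left out in turn. Symbols and coordinates are those of GENCODE on GRCm38, and 771 genes had no symbol.

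The members and lists were chosen with earlier results of these data known. Named were all 8 members, 10 fixed genes of these lists (among them Erbb3, Scn7a, Nrg1, Gdnf, Th, Npy and Nefm), up to 4 called genes per list with the smallest adjusted P in any comparison, and the 5 genes most like Sox10. Some genes fixed in this way are left out of the text and figures. Bmp10, Dip2a, Mitf, the genes most like Cdh19 and the 5 marker genes named at 2 weeks are not covered by it and were chosen after seeing their values.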

Additional observations from a re-analysis of the deposited data

Results flagged for a closer look

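The Ngfr level of ctrl replicate 1, 1.30 CPM, lay farther from the next control (0.557 CPM) than Dixon's test at 95% allows for 6 mice. Of 24 groups of member values tested in this way 1 stood out, and chance gives about 1 in 20. The Ngfr values without this mouse are given above.

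Levels differed between the 2 irradiated groups for 5 named genes of the pathway lists, by the direct test of 6 against 2 weeks in edgeR. The labels give the controls no time, so time since irradiation and age cannot be told apart here. The log2 fold change between these times was 1.20 for Pou3f1, −0.67 for Kcna1, −0.40 for Erbb3, −0.35 for Erbb2 and −1.19 for Ret. The adjusted P values were 0.0347 for Pou3f1, 0.036 for Kcna1, 0.0402 for Erbb3, 0.0277 for Erbb2 and 0.0234 for Ret. Each of them lost significance when some single mice were left out, between 3 mice (Ret) and 9 mice (Pou3f1) of 18. The cause of the differences was not tested.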

How the results depend on the processing

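The count of members called stayed at 0 except with library size only at 6 weeks (1, Mbp), with log2(TPM + 1) and log2(TPM + 0.1) at 2 weeks (1 each, Ngfr), and without ctrl replicate 1 (leave-one-out range 0 to 1). Of the pathway genes, library size only called 5 at 2 weeks and 2 between 6 and 2 weeks, log2(TPM + 1) called 4 at 2 weeks, log2(TPM + 0.1) called 23 at 6 weeks (21 higher), and no filter called 3 between 6 and 2 weeks. Requiring an absolute log2 fold change above 1 left 1, 5 and 2 pathway genes. Leaving out single mice gave 2 pathway genes at 2 weeks each time, 11 to 17 at 6 weeks and 1 to 7 between 6 and 2 weeks. The last count was 3 or fewer without 2wk replicate 1, 2, 3 or 6 or without 6wk replicate 1, 3, 5 or 6. Library size only and TPM raise the median of all genes, and values near 0 turned with them. With library size only, log2(TPM + 1) and log2(TPM + 0.1) in turn, the log2 fold change became 0.016, 0.017 and 0.047 for Cdh19 at 2 weeks, 0.046, 0.081 and 0.14 for S100b at 6 weeks and 0.094, 0.042 and 0.041 for S100b between 6 and 2 weeks. With the TPM forms it became 0.040 and 0.10 for S100b at 2 weeks and 0.073 and 0.081 for Scn7a at 6 weeks. Nrg1 at 6 weeks was −0.23 with limma voom. Leaving out single mice moved Pmp22 between −0.061 and 0.15 at 2 weeks, −0.044 and 0.16 at 6 weeks and −0.042 and 0.071 between them, and S100b between −0.22 and 0.13 in the last comparison. The cause was not tested.

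With the replicate number as a block (replicate block) 0, 0 and 0 members and 2, 15 and 5 pathway genes were called. Deviations of same-numbered mice correlated at −0.083 to 0.106 over 18 pairs (median 0.033). Those of mice with other numbers correlated at −0.197 to 0.186 over 90 pairs (median −0.015). Whether the numbers mark litters or batches cannot be told from these values. At 0 to 15 counts, as for Sox10, depth limits what can be seen.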
